A study of Papio anubis with 12 samples.

Results

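The genes of the mitochondrial respiratory chain and the ATP synthase were followed in the precentral gyrus, the motor cortex, of 12 baboon neonates that had received 1 of 3 formulas. Members were chosen by gene symbol: probe sets whose single annotated symbol was NDUFA, NDUFB, NDUFC, NDUFS or NDUFV with a number (complex I, NADH dehydrogenase), an SDH subunit (complex II, succinate dehydrogenase), CYC1 or a symbol starting with UQCR (complex III, cytochrome bc1), a numbered COX subunit (complex IV, cytochrome c oxidase) or a symbol starting with ATP5 (complex V, the ATP synthase). The pattern also takes in ATP5IF1, an inhibitor rather than a subunit, and passes over NDUFAB1, a complex I subunit. There were 151 such probe sets for 77 genes, of 54613 probe sets tested and 19775 single symbols. Complex I had 32 genes, complex II 3, complex III 7, complex IV 17 and complex V 18. Each gene is described by its brightest probe set, the one with the highest mean over the 12 arrays, unless another is named. SDHB, UQCRFS1 and NDUFA4L2 had no probe set with that single symbol and are not analysed here.

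Each animal gave 1 array of human probe sets, so a probe set's level reflects both the abundance of the baboon transcript and its match to a human probe. Formula C was made without docosahexaenoic acid (DHA) or arachidonic acid (ARA). As shares of the fatty acids, DHA was 0.33% in formula L and 1.00% in formula L3, and ARA was 0.67% in each of those formulas. The groups were of 4 animals each, aged 83 to 85 days in C, 84 to 87 in L and 83 to 84 in L3. Sex was not balanced, with 2 males fed C, 1 fed L and 0 fed L3.

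Complexes I to IV pass electrons from fuel molecules to oxygen and, at complexes I, III and IV, pump protons across the inner mitochondrial membrane. The ATP synthase lets the protons return and makes ATP. Neurons spend much of this ATP on ion pumping and synaptic signalling. The subunits measured here are encoded in the nucleus, and a few come as isoforms that differ between tissues.

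The deposited values are signals of the Affymetrix MAS5 method, scaled so that the trimmed mean of every array was between 250.01 and 250.02. Differences between formulas are given for log2(signal + 16) after quantile normalization, with the standard error of the limma fit after the ± sign unless SD is written. The median signal of an array was between 108.8 and 174. For replicates 1 to 4 it was 149.9, 167.5, 108.8 and 126.1 in C, 171.9, 114.9, 133.2 and 118.2 in L, and 161.3, 161.6, 174 and 128.9 in L3. The mean log2 signal of the spike-in control probe sets was 12.3, 12.7, 12 and 11.1 in C. It was 13, 11.8, 11.2 and 10.7 in L, and 13, 13.4, 13.7 and 10.8 in L3. The 3'/5' signal ratio of ACTB, a measure of how complete the copied RNA was, was between 0.904 and 72.3, and was highest for replicate 1 of each formula. All 7 neuronal marker genes were measured, and their summed signal was 72042 to 93526 in C, 58721 to 93719 in L and 62409 to 85830 in L3. Of 4 red cell markers, the summed signal was 1966 to 2649 in C, 1581 to 2386 in L and 2076 to 2357 in L3. In homogenized tissue, fewer cells of a type and less RNA per cell cannot be told apart.

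The respiratory chain genes were among the brighter features of these arrays: 73 of the 77 had a mean level above the median of all probe sets, here called the brighter probe sets, and the median gene was at the 94.7th percentile. COX7A1, COX7B2, COX8C and ATP5MF lay below the median of all probe sets. ATP5MF was read from a single dim probe set, since another that carries its symbol also carries that of ARMC2-AS1 and was left out. Its low level here is that of this probe set. At the median, the 77 genes also varied less than the brighter probe sets and all probe sets, neither of which was matched to them for level. The median standard deviation within a formula group, on the log2 scale, was 0.44 for the 77 genes, against 0.62 for the brighter probe sets and 0.72 for all probe sets. For the complex I genes alone it was 0.59, close to that of the brighter probe sets. UQCRC2, a core subunit of complex III, varied least at 0.09, and NDUFA13, an accessory subunit of complex I, varied most at 1.68.

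No respiratory chain gene passed the test for a difference between formulas after adjustment over all probe sets. With limma and Benjamini-Hochberg adjustment, 0 of 77 genes passed an adjusted p of 0.05 in L3/C, L/C, L3/L or the test of any formula difference, and neither did any of the 54613 probe sets (0.0% in each). At an unadjusted p of 0.05, 0 of 77 passed in L3/C, where 4.26% of all probe sets did. In L/C 1 of 77 passed, against 2.42% of all probe sets, and in L3/L 1 of 77, against 5.4%. In the test of any formula difference 0 of 77 passed, against 3.67% of all probe sets.

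The middle of the genes lay close to no difference. The median log2 difference was −0.06 in L3/C, with 30 genes higher and 47 lower, while over all probe sets it was 0.00. In L/C it was −0.08, again with 30 higher and 47 lower, against −0.01 over all probe sets. In L3/L it was 0.01, with 40 higher and 37 lower. The 3 comparisons share arrays and are not independent. The scaling moved these medians: with each array centred on its own median the L3/C value was −0.38 (70 of 77 lower) where all probe sets lay at −0.12, and with the deposited signals left as they were it was −0.21 (58 lower) against 0.05 for all probe sets.

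Differences as large as 2-fold lay outside the 95% interval for a larger share of these genes than of the brighter probe sets or of all probe sets. Neither set was matched to the genes for level. The interval of the L3/C difference lay within 2-fold in both directions for 46 of 77 genes, or 59.7%, against 29.6% of the brighter probe sets and 20.6% of all probe sets. Over all 151 member probe sets it was 49.0%, with a median standard error of 0.36. Of the 77 genes, this was so for 45 in L/C and for 48 in L3/L. The median standard error of a difference was 0.30 log2 units for the 77 genes and 0.51 for all probe sets. All 77 estimates were under 2-fold in L3/C, where they ran between −0.92 and 0.80. In L/C 74 were, and the range was −1.28 to 1.32.

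**Figure D1:**
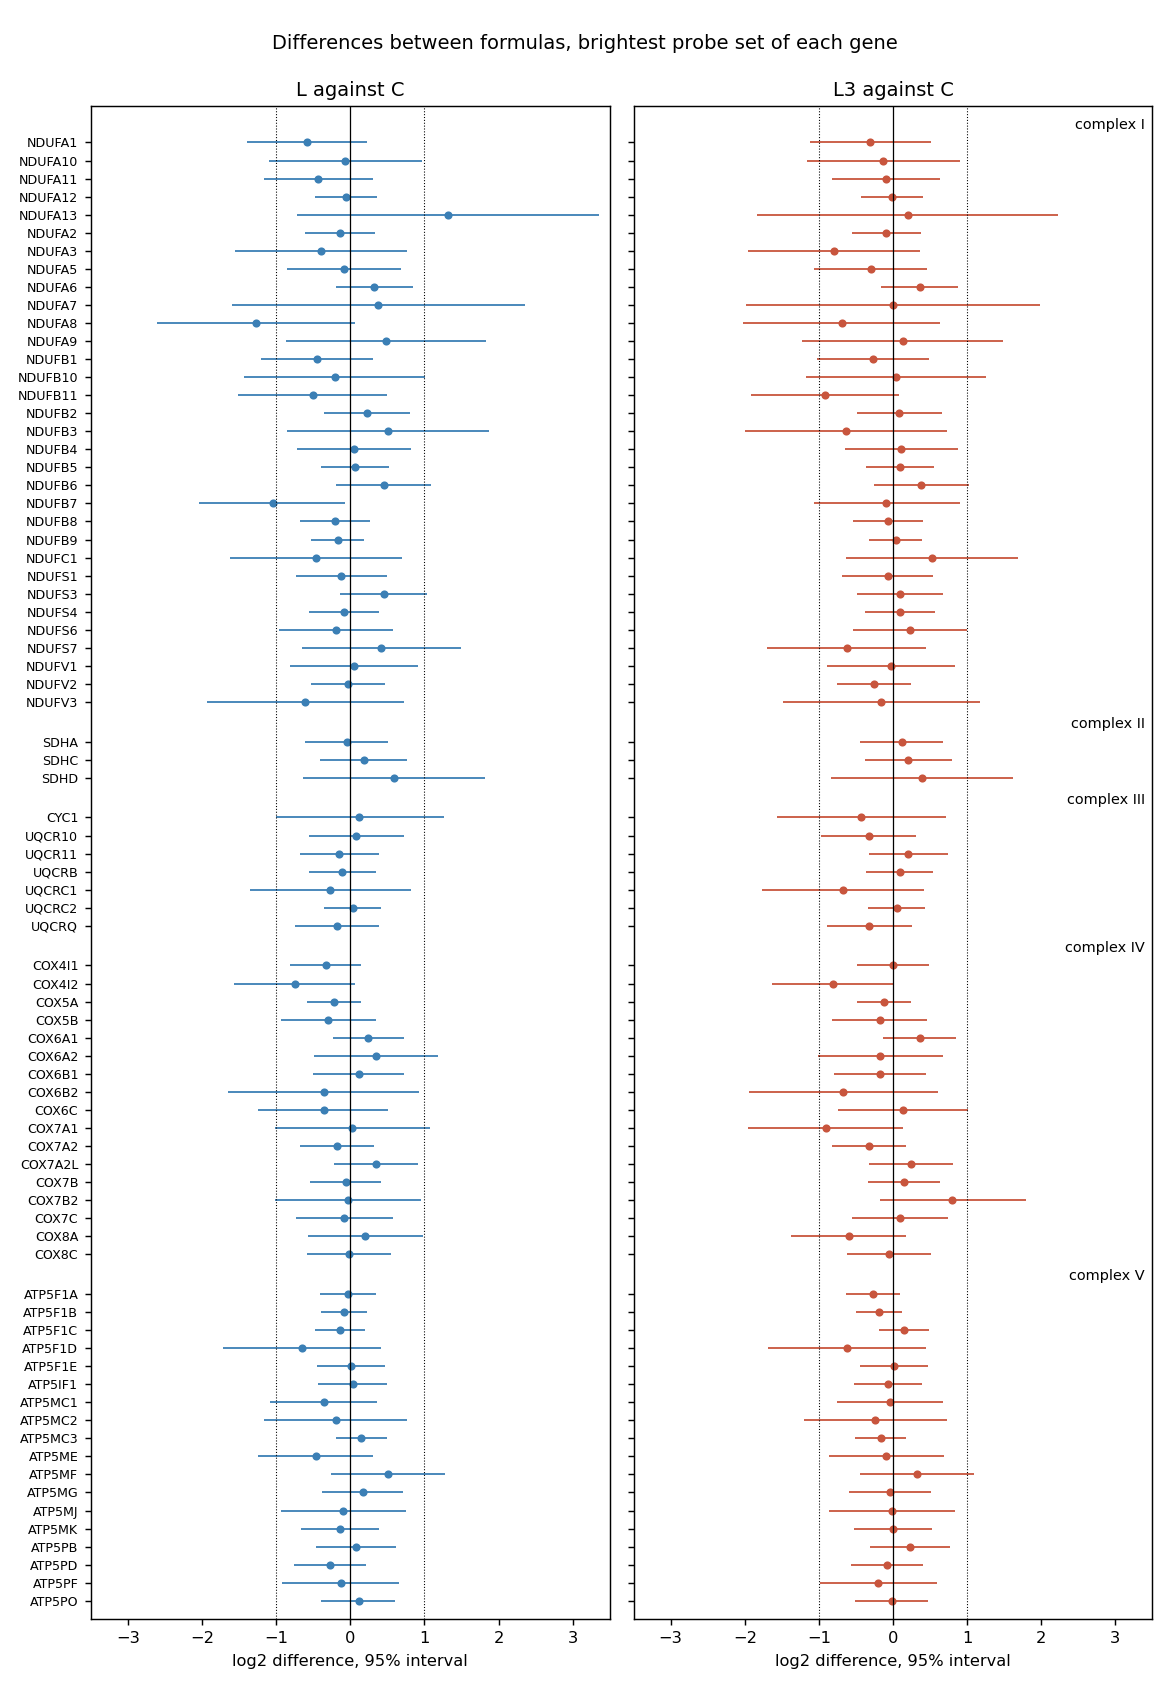
Log2 difference between formulas for the brightest probe set of each of 77 genes, grouped by complex, in L against C (left) and L3 against C (right); points are limma estimates, lines 95% intervals, and dotted lines mark 2-fold. In L3/C 46 of 77 intervals lie wholly between the dotted lines, and the only interval that excludes 0 in L/C is that of NDUFB7.

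The catalytic core of the ATP synthase was among the most precisely measured parts. ATP5F1B, the catalytic beta subunit, had signals of 9511.6, 6919.3, 19114.4 and 13125.1 in C, 5741.7, 15911.6, 10586.5 and 12957.7 in L, and 7374.5, 9180.4, 7533.7 and 10550.9 in L3. The 3 groups overlapped. Its log2 difference was −0.19 ± 0.15 (SE; 95% interval −0.50 to 0.12; exact permutation p = 0.257) in L3/C and −0.08 ± 0.15 in L/C. ATP5F1A, the alpha subunit that alternates with it in the same ring, gave −0.27 ± 0.18 in L3/C (95% interval −0.64 to 0.10) and −0.03 ± 0.18 in L/C. ATP5F1C, the central stalk that turns inside that ring, gave 0.15 ± 0.16 and −0.14 ± 0.16 for L3/C and L/C.

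The membrane ring through which protons pass is encoded by 3 genes that give the same mature protein. ATP5MC1 gave −0.04 ± 0.34, ATP5MC2 −0.24 ± 0.45 and ATP5MC3 −0.16 ± 0.16 in L3/C, and no adjusted p was under 0.999. The 3 probe sets of ATP5MC3 differed: the brightest was at −0.16 and another at 0.12, and a dimmer one at −0.80 ± 0.37 (limma p = 0.0477, adjusted p = 0.999, exact permutation p = 0.0286). The signals of that dimmer probe set were 162.5, 258.9, 179.5 and 221.3 in L3 and 306.4, 484.1, 278.0 and 246.7 in C, and after quantile normalization all 4 L3 arrays lay below all 4 C arrays (0.0286 is the smallest p that 4 arrays against 4 allow). Such separation was seen at 1.07% of all probe sets in the lower direction in L3/C. The study chose this probe set on these same arrays, so it is no independent evidence of a direction. ATP5IF1, which inhibits the enzyme when the proton gradient is lost and is named after its values were seen, gave −0.07 ± 0.22 in L3/C and 0.03 ± 0.22 in L/C.

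Over the 18 ATP synthase genes the median log2 difference was −0.05 in L3/C and −0.09 in L/C. The lowest estimate was that of ATP5F1D, the delta subunit, named after its values were seen, at −0.62 ± 0.51 in L3/C and −0.65 ± 0.51 in L/C. In L replicate 1 the ATP5F1D signal was 125.7, against 912.5 to 922.5 in the other 3 L arrays, and without that array the L/C value turned to 0.06. The other ATP5F1D probe set gave 0.07 ± 0.74 in L3/C and 0.75 ± 0.74 in L/C.

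In complex IV the gene with the smallest p in L3/C and in L/C was COX4I2, an isoform of subunit 4 that in mammals is known mainly from lung and is raised by low oxygen in cultured cells. Its signals were 367.9, 403.9, 293.6 and 241.9 in C, 184.0, 192.6, 196.2 and 155.3 in L, and 269.9, 131.7, 347.1 and 109.7 in L3. All 4 L arrays lay below all 4 C arrays, while 2 of the 4 L3 signals lay within the range of C and the other two lay lowest of all. The log2 difference was −0.75 ± 0.39 in L/C (95% interval −1.57 to 0.06, limma p = 0.0686, exact permutation p = 0.0286) and −0.81 ± 0.39 in L3/C (95% interval −1.63 to 0.00, limma p = 0.0509, exact permutation p = 0.0571). It was the 1 gene of 77 (1.3%) whose L and C groups did not overlap, a share close to that of all features, where 1.17% of all probe sets did not overlap in that direction and 0.93% in the other. No gene of the 77 had non-overlapping groups in L3/C (1.07% lower and 1.14% higher over all probe sets) or in L3/L (1.14% lower and 1.53% higher).

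The common form of that subunit, COX4I1, gave −0.00 ± 0.23 in L3/C and −0.33 ± 0.23 in L/C. COX5A, a subunit on the matrix side, gave −0.12 ± 0.17 in L3/C and −0.22 ± 0.17 in L/C, with 95% intervals within 2-fold. COX6C gave 0.13 ± 0.41 in L3/C. COX7A1, the heart and skeletal muscle form of subunit 7A, had signals of 28.2, 18.9, 18.7 and 20.2 in L3, against 42.8, 25.8, 100.6 and 53.2 in C. A single C array lay below 1 L3 array, and the difference was −0.91 ± 0.49 (exact permutation p = 0.0857). COX7A1 was not among the brighter probe sets, and without C replicate 3 the value was −0.55. COX7B2, a form known chiefly from testis, gave 0.80 ± 0.46 in L3/C, with 1 L3 array at 198.2 and all 11 others between 6.2 and 58.3.

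COX8A, the ubiquitous form of subunit 8, was the 1 gene with an unadjusted p under 0.05 in L3/L, and is named after its values were seen. Its signals were 314.2, 174.2, 326.6 and 579.2 in L3 and 440.1, 707.2, 516.5 and 564.4 in L. The groups overlapped, the log2 difference was −0.81 ± 0.37 (limma p = 0.0432, adjusted p = 0.891, exact permutation p = 0.114), and in L3/C it was −0.60 ± 0.37. The median over the 17 complex IV genes was −0.12 in L3/C and −0.06 in L/C.

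**Figure D2:**
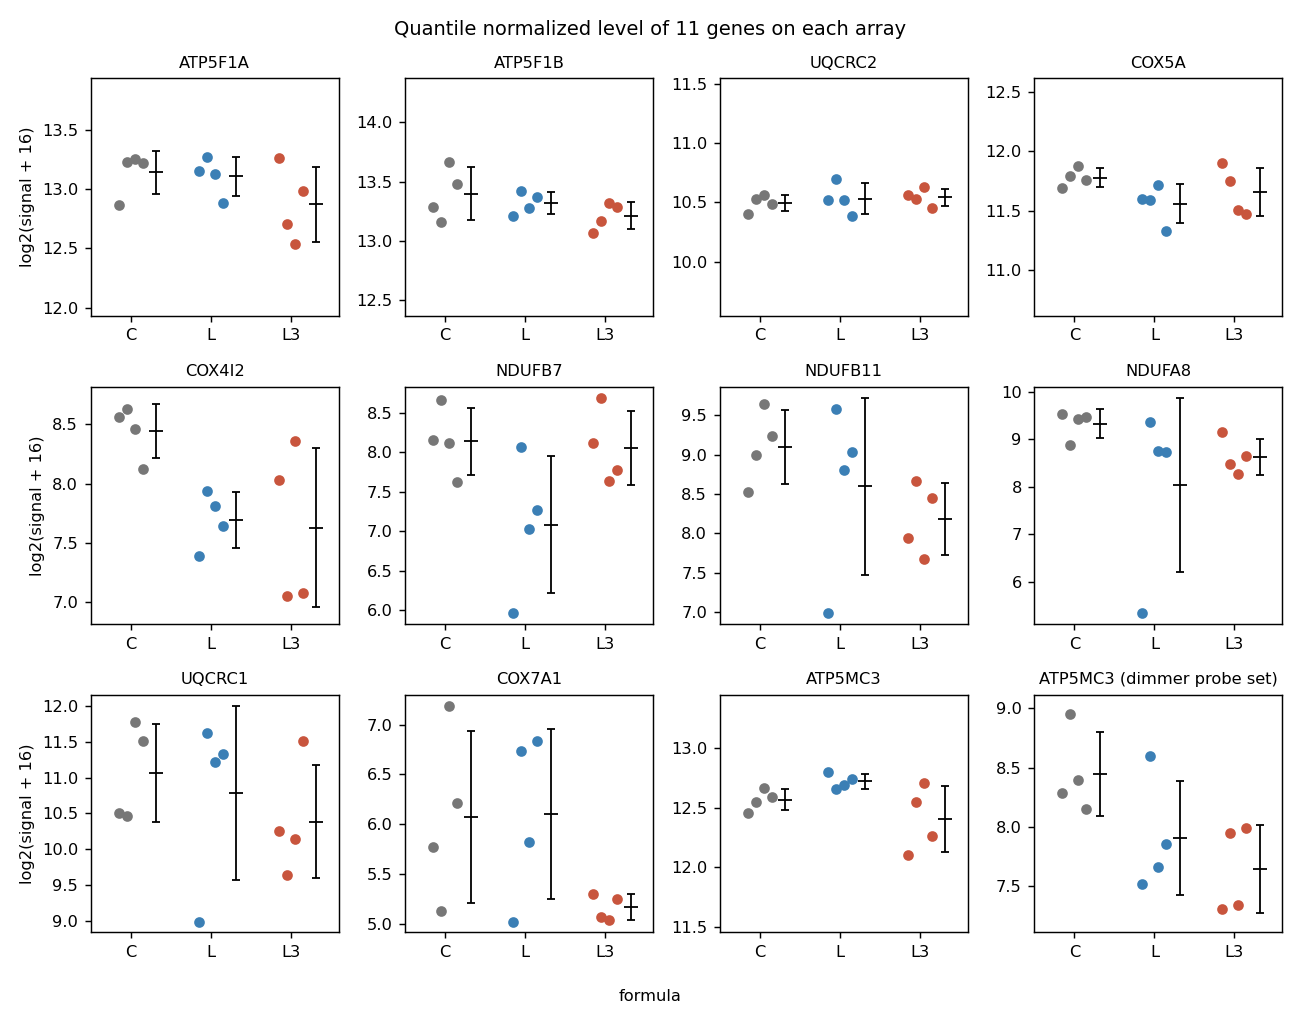
Quantile normalized level, as log2(signal + 16), of 11 genes on every array in formulas C, L and L3; points are arrays, and the bar beside each group is the mean with its standard deviation (n = 4). The dimmer ATP5MC3 probe set has all 4 L3 arrays below all 4 C arrays, COX4I2 has all 4 L arrays below all 4 C arrays, and the other genes shown overlap.

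In complex I the 32 genes spread more than those of the other complexes, with a median within-group standard deviation of 0.59 on the log2 scale, against 0.33 to 0.44 in complexes II to V. NDUFB7, an accessory subunit of the membrane arm, was the 1 gene with an unadjusted p under 0.05 in L/C. Its signals were 57.0, 214.3, 109.2 and 115.3 in L and 277.8, 409.5, 215.5 and 161.1 in C, so that 1 L array lay above 1 C array. The log2 difference was −1.05 ± 0.46 (95% interval −2.04 to −0.07, limma p = 0.0376, adjusted p = 1.00, exact permutation p = 0.0571). Without L replicate 1 this L/C value was −0.68 and its limma p was 0.128. The other NDUFB7 probe set ran the opposite way in L/C, at 0.67 ± 0.68, the widest disagreement between probe sets of a member gene in that comparison. In L3/C the pair gave −0.09 ± 0.46 and 0.25 ± 0.68.

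NDUFB11, also of the membrane arm, was the lowest estimate of the 77 in L3/C. Its signals were 254.2, 404.0, 224.7 and 320.2 in L3, against 356.4, 498.5, 886.9 and 607.0 in C, and the difference was −0.92 ± 0.47 (95% interval −1.92 to 0.08, limma p = 0.0688, exact permutation p = 0.0571). NDUFA8, named after its values were seen as the lowest estimate in L/C, gave −1.28 ± 0.63 there (95% interval −2.61 to 0.06), and −0.39 without L replicate 1, whose signal was 32.1 beside 400.9 to 672.2 in the other 3 L arrays. NDUFA13, the highest in L/C and named in the same way, gave 1.32 ± 0.96 and was the least certain of the genes.

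For the core subunits of complex I the intervals spanned 0 in L3/C and L/C. NDUFS1, which carries iron-sulphur clusters on the electron path, gave −0.07 ± 0.29 in L3/C and −0.13 ± 0.29 in L/C. NDUFV1, which binds NADH, gave −0.03 ± 0.41 and 0.05 ± 0.41. NDUFS7, another iron-sulphur subunit, gave −0.62 ± 0.51 in L3/C and 0.42 ± 0.51 in L/C with its brightest probe set. Its other named probe set ran the other way in both comparisons, at 1.07 ± 0.50 in L3/C (limma p = 0.0491, exact permutation p = 0.0571) and −0.49 ± 0.50 in L/C. The L3 arrays of that second probe set had signals of 335.7, 171.1, 256.8 and 161.1, against 72.5, 82.4, 59.4 and 25.2 in L, and the groups did not overlap in L3/L (1.53% of all probe sets did not in that direction). NDUFA2, an accessory subunit, was similarly split: its brightest probe set gave −0.09 in L3/C, and a dimmer one −1.82 ± 0.61 (limma p = 0.00886, adjusted p = 0.999, exact permutation p = 0.114). The signals of that dimmer one were 17.3, 39.7, 22.0 and 195.5 in L3 and 313.8, 221.9, 127.8 and 144.4 in C, so the groups overlapped. Under alternative processing its L3/C value ran between −2.45 and 0.36. The dimmest NDUFA2 probe set gave 0.27 ± 0.20. Another gene of this kind, ATP5MJ of the ATP synthase, gave −0.01 and −1.21 with its probe sets.

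Several probe sets were present for 44 genes, and they shared a sign in 18 of these in L3/C and in 13 in L/C. Over all 151 member probe sets, the unadjusted threshold was passed by 3 in L3/C (1.99%, against 4.26% of all probe sets), 2 in L/C (1.32%, against 2.42%) and 4 in L3/L (2.65%, against 5.4%), and the adjusted one by 0.

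Complexes II and III gave few genes. SDHA, which holds the flavin of complex II, gave 0.12 ± 0.26 in L3/C and −0.05 ± 0.26 in L/C. SDHC and SDHD, which anchor it in the membrane, gave 0.20 ± 0.28 and 0.39 ± 0.58 in L3/C, and SDHD in C replicate 2 had a signal of 29.0 beside 253.9 to 291.3 in the other 3 C arrays. Without C replicate 2 the L3/C value of SDHD turned to −0.37. In complex III the median of 7 genes was −0.32 in L3/C and −0.11 in L/C, with 3 higher and 4 lower in each. The L3/C median is the value of UQCRQ. UQCRC2 had signals of 1306.6, 1333.0, 1260.4 and 1516.4 in L3 and 1295.6, 1187.8, 1964.7 and 1621.6 in C. Its difference was 0.05 ± 0.18 (95% interval −0.34 to 0.43). UQCRC1, the partner of UQCRC2 in the core, gave −0.68 ± 0.52, with 3 L3 arrays between 730.0 and 1057.0 and 1 at 3228.9. CYC1, which passes electrons on to cytochrome c, gave −0.43 ± 0.54, and UQCRQ, a small accessory subunit, −0.32 ± 0.27. Each rested on a single L3 array: without L3 replicate 1 CYC1 was at 0.04, and without L3 replicate 3 UQCRQ was at −0.06. UQCRC1 ran between −1.05 without L3 replicate 4 and −0.43 without L3 replicate 2 or C replicate 3.

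The arrays differed more from one another within a formula than the formulas did. On a scale where each gene is set against its own mean over the 12 arrays, the median of the 77 genes was −0.01, −0.08, 0.34 and 0.04 in C, −0.41, 0.31, 0.05 and 0.11 in L, and −0.03, 0.09, −0.04 and −0.02 in L3. These array medians averaged 0.07 ± 0.19 for formula C, 0.02 ± 0.31 for formula L and −0.00 ± 0.06 for formula L3 (SD, n = 4 each). Replicate 3 of C and replicate 2 of L stood high and replicate 1 of L stood low. In C replicate 3, 63 of the 77 genes lay above their own mean, in L replicate 2, 67 did, and in L replicate 1, 57 lay below. On the same scale the median of the brighter probe sets was 0.09, 0.10 and −0.03 on these arrays in turn.

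**Figure D3:**
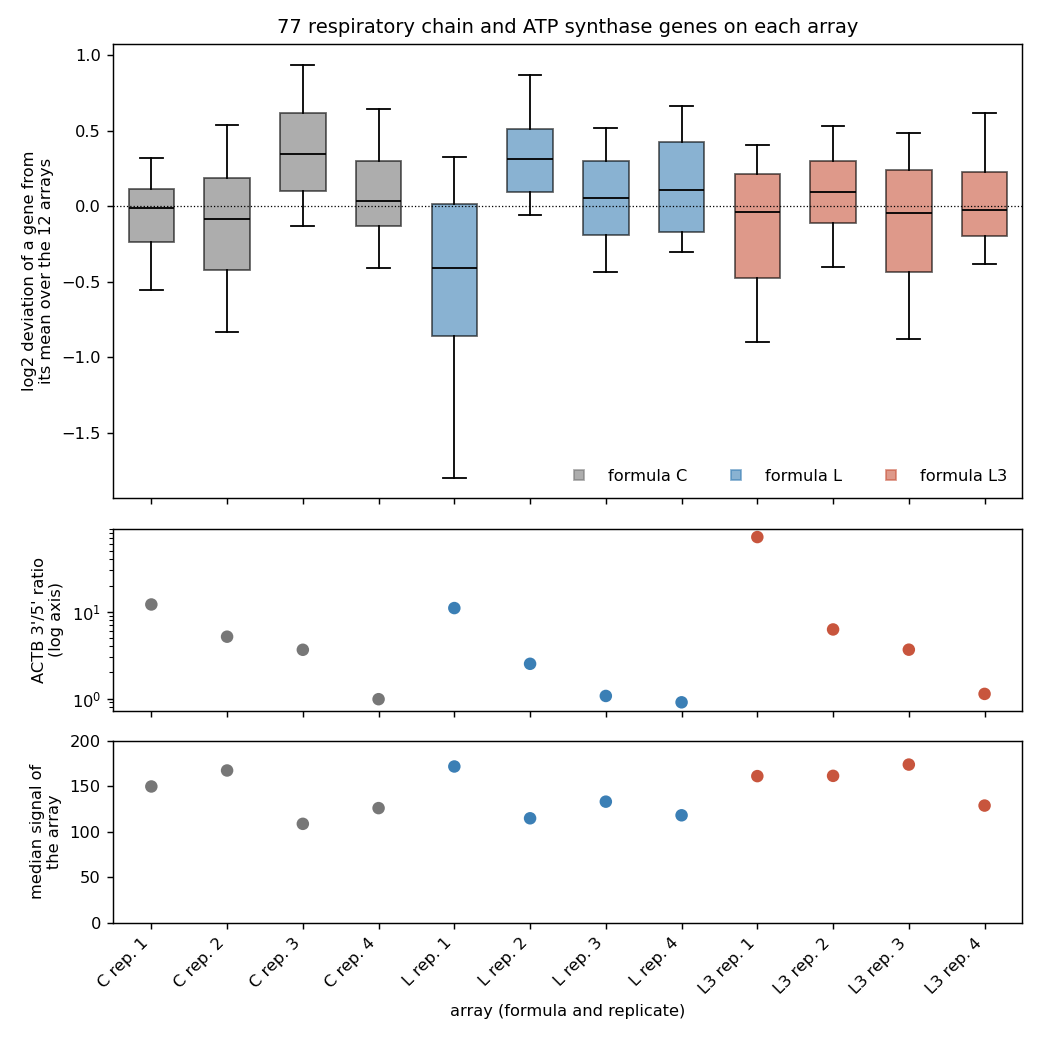
Top, the log2 deviation of each of 77 genes from its own mean over the 12 arrays, as a box per array (line, median; box, quartiles; whiskers, 10th to 90th percentile) for formulas C, L and L3; below, the ACTB 3'/5' signal ratio (log axis) and the median deposited signal of the same arrays. The medians run between −0.41 in L replicate 1 and 0.34 in C replicate 3, while the 4 L3 medians lie between −0.04 and 0.09.

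Replicate 1 of L carried the widest deficits. Relative to the mean of the other 3 L arrays, 23 of 77 genes (29.9%) were at least 2-fold lower there, against 22.3% of the brighter probe sets and 18.6% of all probe sets. Of the 23, 15 were complex I genes, 2 complex III, 2 complex IV and 4 complex V. The widest deficits, whose genes are named after their values were seen, were those of NDUFA8 at −3.61, NDUFA7 at −3.09, NDUFV3 at −3.01, NDUFA3 at −2.95 and NDUFB10 at −2.87 log2 units, and ATP5F1D was at −2.82. Dimmer probe sets did not all follow. On L replicate 1 the other NDUFV3 probe set had a log2 level of 7.49 (other L arrays 4.79 to 7.02) and that of NDUFB10 6.87 (5.95 to 6.49), which were higher. The other ATP5F1D probe set was lower, at 7.02 (9.29 to 9.45), and that of NDUFA7 slightly so, at 5.09 (5.14 to 5.22). On L replicate 1 ATP5F1B was at −0.15, COX5A at 0.06 and UQCRC2 at −0.01, and COX6C was higher by 1.74. This too depended on the probe set. The dimmer COX5A probe set had a log2 level of 6.68 there (other L arrays 7.67 to 8.08). Of the remaining UQCRC2 probe sets, the brighter was lower, at 9.59 (10.14 to 10.48), and the dimmer higher, at 7.69 (5.93 to 7.24). Replicate 1 of L was the lowest of all 12 arrays for 29 of the 77 genes, against 14.2% of all probe sets.

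C replicate 3 was the highest of the 12 arrays for 22 of the 77 genes and L replicate 2 for 14, against 5.86% and 6.21% of all probe sets. These 2 arrays had the lowest median signals, 108.8 and 114.9, and L replicate 1 had 171.9, the second highest. The ACTB 3'/5' ratio of L replicate 1 was 11, that of C replicate 1 was 12.1 and that of L3 replicate 1 was 72.3. On the same scale as the 77 genes, the endothelial marker median was −0.43 in L replicate 1, 0.42 in C replicate 3 and 0.54 in L replicate 2. The microglial median was −0.07, 0.14 and 0.98 on these 3 arrays, and the assembly factor median −0.06, 0.42 and 0.18. The median of genes taken as a measure of mitochondrial mass was −0.10, 0.18 and 0.09. All these lists had the signs of the 77 genes on the 3 arrays. The other lists read did not share all 3 signs, the neuronal median being 0.18, −0.05 and 0.04. On other arrays the endothelial median went its own way, at −0.33 in L3 replicate 1 and −0.65 in L3 replicate 3. The 77 genes lay there at −0.03 and −0.04. The part of scaling, RNA completeness and cell composition in these array differences was not tested.

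**Figure D4:**
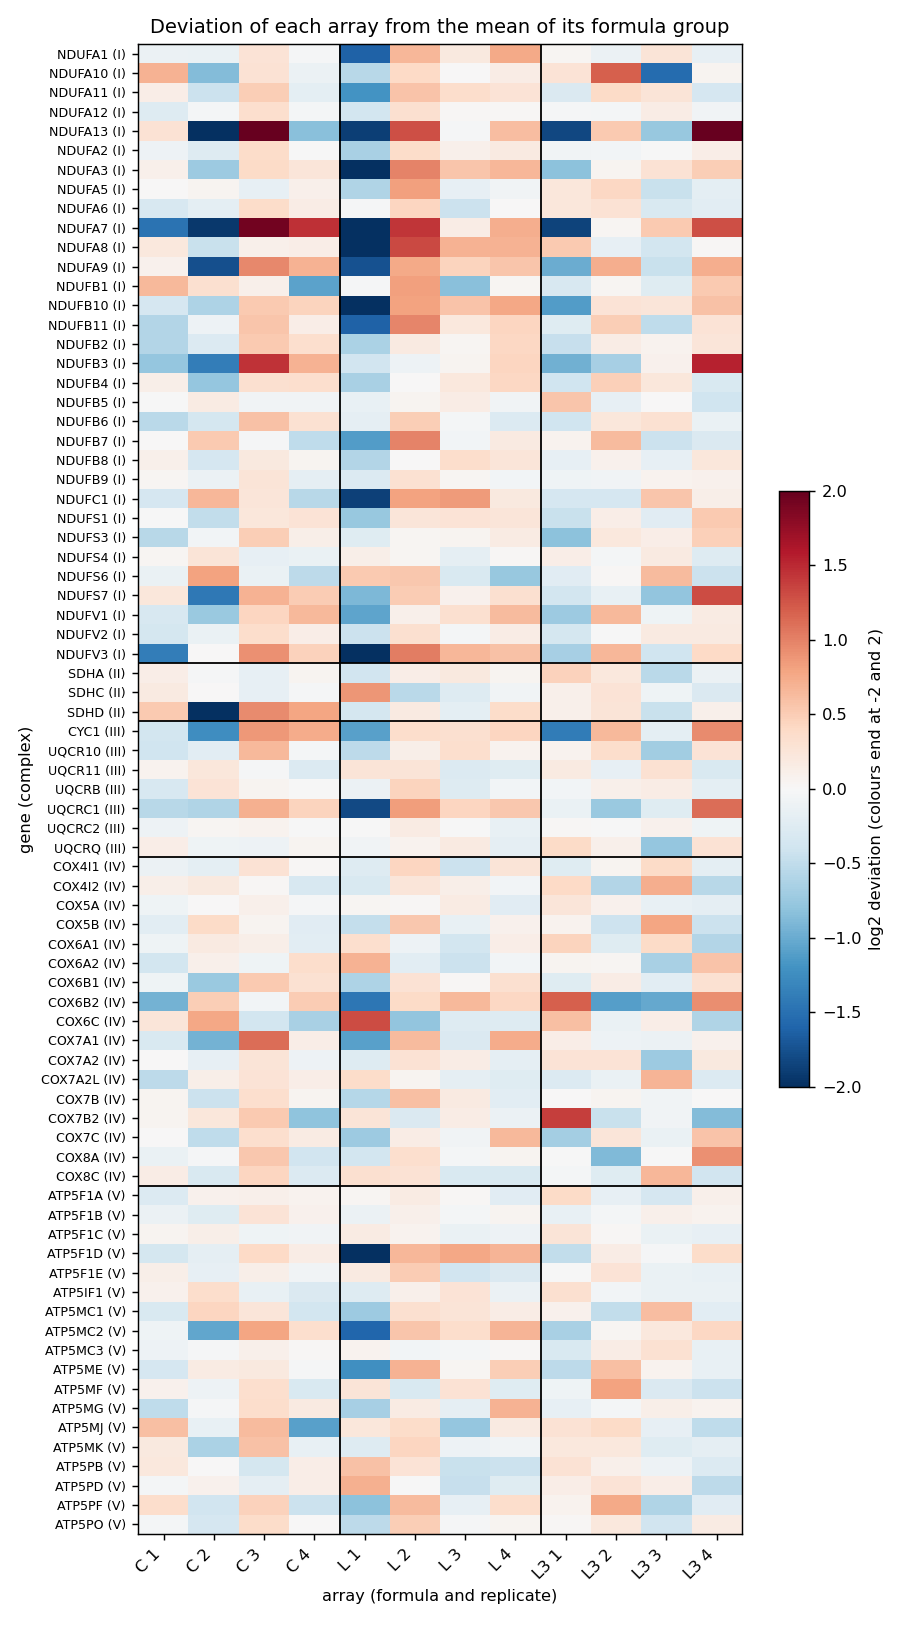
Log2 deviation of each array from the mean of its formula group for 77 genes (rows, with the complex in brackets) and 12 arrays (columns) in formulas C, L and L3; colours end at −2 and 2. In L replicate 1 the blue rows gather in complex I, where 15 of 32 genes were at least 2-fold below the other 3 L arrays.

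Other genes of the same organelle were read from lists of their own. The 50 assembly factors, which build the complexes but are not part of them, lay at a median of −0.10 in L3/C (20 higher, 30 lower) and 0.00 in L/C on the log2 scale. At the unadjusted threshold 1 of 50 passed in L3/C, against 4.26% of all probe sets, and 0 in L/C, against 2.42%. The 1 that passed was COX17, a copper carrier for complex IV, at 1.43 ± 0.66 in L3/C. COX17 signals were low, at 18.3 to 82.9 in C and 66.6 to 293.0 in L3. The 14 regulators of mitochondrial biogenesis had medians of 0.03 in L3/C and 0.00 in L/C, with TWNK, the mitochondrial DNA helicase, at 1.76 ± 0.54 in L3/C (adjusted p = 0.999) and 1.45 ± 0.54 in L/C (adjusted p = 1.00). Of 15 citric acid cycle genes 13 were measured, and their medians were −0.08 in L3/C and 0.13 in L/C. At the unadjusted threshold 0 passed in L3/C (4.26% of all probe sets did) and 0 in L/C (2.42%). The 15 genes taken as a measure of mitochondrial mass had medians of −0.06 in L3/C and 0.00 in L/C, with CYCS, the electron carrier between complexes III and IV, at 0.46 ± 0.20 in L/C (adjusted p = 1.00). COX17, TWNK and CYCS are named after their values were seen, because they passed the unadjusted threshold. Over all these genes 0 had an adjusted p under 0.05.

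Cell type markers gave the following background. The neuronal list was at −0.09 in L3/C and −0.02 in L/C, the astrocyte list at 0.19 and 0.11, and the oligodendrocyte list at −0.25 and 0.01. The endothelial list was at −0.19 and 0.07, and the red cell list at −0.27 and −0.31. The 6 microglial markers were at −0.02 in L3/C and 0.53 in L/C, where all 6 were higher in L. Of them C1QB, with signals of 20.6 to 104.2 in C, passed the unadjusted threshold at 2.00 in L/C. Other markers that passed it in L3/C were AQP4 of astrocytes at 0.63 and, among the red cell genes, HBB at 0.58 and CA1 at −1.37, which went opposite ways. No marker had an adjusted p under 0.05. The part of cell composition in the gene differences above was not tested.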

How the data were processed

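One HG-U133 Plus 2.0 array per animal was deposited as a table of MAS5 signals. The authors scaled each array to a common trimmed mean, so the deposited intensity values are on a linear scale; the MAS5 version is not given in the sources used here. The paper's methods name another summary of the probes for its own tests. The 62 control probe sets were left out of 54675. Signals were taken as log2(signal + 16), quantile normalized, and fitted with limma 3.58.1 in R 4.3.3 (1 mean per formula, 9 residual degrees of freedom, variance trend), with Benjamini-Hochberg adjustment over all 54613 probe sets. Named probe sets also had an exact two-sided permutation test of 4 against 4 arrays, whose smallest p is 0.0286. The p-values measure the spread between animals. No depth exists for arrays; their number limits the precision. Symbols came from the platform's annotation: 41091 probe sets had 1 symbol, 1801 several and 11721 none. Left out were 2 pseudogene probe sets, 4 of antisense or divergent transcripts and 10 with several symbols.

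Genes named were core subunits, ring genes and tissue isoforms, the 2 genes with the smallest p in L3/C and the 1 in L/C in each complex, probe sets the study lists, members with non-overlapping groups and the 3 genes whose probe sets differed most in L3/C. A further probe set that the study lists under UQCRC2 had no symbol in the annotation used here and is not analysed here. In the text, genes named outside this rule are stated as such. The members and lists were chosen with earlier results of these data known. The fit was tested on simulated data. Alternatives changed the scaling, pseudocount, filter, covariates, arrays and test.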

Additional observations from a re-analysis of the deposited data

Results flagged for a closer look

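In 15 of 123 groups of 4 arrays checked (the named probe sets in each formula, and the module median), 1 array lay apart from the other 3 by more than a 95% limit. About 1 in 20 unrelated groups would pass that limit by chance. These groups share the same 12 arrays and include genes named after their values were seen, so that rate gives no test of them. Values are quantile normalized log2 levels, with the range of the other 3 arrays of that formula after each. In 10 of the 15, the array was replicate 1 of L and it was the low one. There NDUFA8 was at 5.34 (others 8.74 to 9.36), NDUFA3 at 7.41 (10.18 to 10.61), NDUFS1 at 9.53 (10.53 to 10.56) and the dimmer NDUFA2 probe set at 6.47 (7.71 to 7.88). CYC1 was at 8.71 (10.11 to 10.22) and UQCRC1 at 8.99 (11.22 to 11.62). COX6B2 was at 6.50 (8.32 to 8.59), ATP5F1D at 6.92 (9.70 to 9.81), ATP5MC1 at 7.99 (8.87 to 9.03) and ATP5MC2 at 9.48 (11.42 to 11.74).

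The others were in different arrays. In C replicate 2, SDHD was at 5.24 (others 8.03 to 8.45) and NDUFA8 at 8.88 (9.43 to 9.54). In C replicate 1, ATP5F1A was at 12.87 (13.22 to 13.25). In L replicate 3, ATP5MJ was at 8.20 (9.16 to 9.35). The median deviation over the 77 genes was 0.09 in L3 replicate 2, against −0.04 to −0.02 in the other 3 L3 arrays.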

How the results depend on the processing

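The count of genes with an adjusted p under 0.05 was 0 in each comparison under all alternatives. Of 80 named differences, 32 kept their sign under each alternative run for them (28, or 27 for the 16 of dim probe sets), 48 turned in 1 or more, and 0 had an adjusted p under 0.05 in any. The median over the 77 genes moved by more than the spread between arrays only when each array was centred on its median, to −0.38 in L3/C and −0.36 in L3/L, where all probe sets lay at −0.12 and −0.13. Leaving out 1 array at a time gave medians between −0.15 and 0.04 in L3/C, −0.16 and 0.11 in L/C, and −0.16 and 0.09 in L3/L. Genes with an unadjusted p under 0.05 then numbered 0 to 5 in L3/C (3.63% to 7.88% of all probe sets), 0 to 2 in L/C (1.89% to 3.46%), 0 to 9 in L3/L (4.12% to 9.95%) and 0 to 6 in the test of any formula difference (3.08% to 6.81%). The highest counts in L3/C, L3/L and the test of any difference came without L replicate 1, where 5.21%, 7.6% and 5.03% of all probe sets passed. Under the other alternatives the counts were 0 to 5, 0 to 3 (L/C), 0 to 7 (L3/L) and 0 to 4, beside 2.97% to 5.2%, 1.73% to 5.05%, 3.93% to 7.69% and 2.85% to 5.99% of all probe sets. The replicate numbers were not taken to pair animals: of 12 same-number pairs, 6 had a correlation of deviations over 0.1 (−0.085 to 0.33), and 6 of 12 arrays correlated best with their own number. With the replicate number as a block, the counts at an adjusted p under 0.05 stayed at 0 and the medians at −0.06, −0.08 and 0.01; unadjusted counts were 1 in L3/C, 2 in L/C, 5 in L3/L and 1 for any formula, beside 5.19%, 3.11%, 7.01% and 4.94% of all probe sets. Covariates for the ACTB ratio and the spike-in signal, array weights and subsets by those measures were chosen after seeing the data. With the spike-in signal as a covariate the L3/C median was 0. Among the 6 arrays with lower spike-in signal it was −0.20, with L3 replicate 4 as the only L3 array. With 4 arrays a group, only differences well above the standard errors given could pass the adjustment.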
